A study of Mus musculus with 18 samples.

Results

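The nuclear oxidative phosphorylation genes were taken as all genes whose symbols begin with Ndufa, Ndufb, Ndufc, Ndufs, Ndufv, Uqcr, Cox4, Cox5, Cox6, Cox7, Cox8 or Atp5, together with Sdha, Sdhb, Sdhc and Sdhd. The symbols of 93 genes fit this rule, and 90 of them, out of 16901 genes in all, had at least 10 counts in at least 3 of the 18 samples. The 90 members comprised 38 genes of complex I, 8 complex I assembly factors (Ndufaf), 4 of complex II, 8 of complex III, 15 of complex IV and 17 of complex V. The 3 genes left out were Cox6a2, Cox8b and Cox8c, muscle or testis forms of complex IV subunits which reached at most 9 counts (Cox6a2 and Cox8b) or 5 (Cox8c) in a library.

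RNA-seq was done on 6 kinds of mouse pluripotent cell, each with 3 replicates, all labelled wild type and of strain 129S2/SvPasCrl. Naive embryonic stem cells (ESC) were grown in 2iL, which is 2 kinase inhibitors with LIF, and epiblast-like cells (EpiLC) are made from naive cells by exposure to activin A and FGF. The primed groups were epiblast stem cells (EpiSC) and cells kept in activin A and FGF2 (AFSC), which the study derived from blastocysts. Advanced pluripotent stem cells (ASC) came from AFSC moved to ABCL medium, which holds activin A, BMP4, the GSK3 inhibitor CHIR99021 and LIF, while ESC-ASC were converted from ESC in 2iL by the same medium. The labels do not say whether the replicates of a group were separate lines, clones or dishes, so each test below measures the spread between these samples. The methods of the study also name transgenic males of mixed background as sires of the embryos, so whether the groups share 1 genetic background cannot be told from the labels.

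Oxidative phosphorylation passes electrons from NADH through complex I, or from succinate through complex II, to complex III and then, by cytochrome c, to complex IV, which reduces oxygen. Complexes I, III and IV pump protons out of the mitochondrial matrix, and complex V, the ATP synthase, uses their return to make ATP. Complex II is encoded wholly in the nucleus, whereas the other complexes combine nuclear subunits with subunits encoded in mitochondrial DNA. Several nuclear subunits, mainly of complex IV, exist as paralogues used in different tissues or at low oxygen. Naive mouse cells are known for using both respiration and glycolysis, and primed cells for relying mostly on glycolysis.

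Complex IV paralogues were among the members that differed most between groups, so the 250 bases before the annotated start of 3 of them and of Cox5a, the complex IV subunit that also differed strongly, are shown. The windows are from RefSeq on GRCm38.p6, run 5′ to 3′ on the strand of the gene, and carry CG dinucleotides in capitals.
Cox7b2 (chr5:71548206-71548455, minus strand): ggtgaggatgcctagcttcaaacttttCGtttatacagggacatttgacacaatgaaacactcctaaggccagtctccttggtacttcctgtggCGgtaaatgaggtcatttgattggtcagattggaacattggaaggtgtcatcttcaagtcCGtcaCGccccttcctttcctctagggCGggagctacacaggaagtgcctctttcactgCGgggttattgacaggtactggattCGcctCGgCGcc
Cox7a1 (chr7:30183921-30184170, plus strand): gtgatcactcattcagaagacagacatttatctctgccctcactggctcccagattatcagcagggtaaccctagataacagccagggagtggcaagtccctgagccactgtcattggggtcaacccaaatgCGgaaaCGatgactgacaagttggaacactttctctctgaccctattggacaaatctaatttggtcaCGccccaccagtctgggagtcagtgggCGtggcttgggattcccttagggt
Cox6b2 (chr7:4753095-4753344, minus strand): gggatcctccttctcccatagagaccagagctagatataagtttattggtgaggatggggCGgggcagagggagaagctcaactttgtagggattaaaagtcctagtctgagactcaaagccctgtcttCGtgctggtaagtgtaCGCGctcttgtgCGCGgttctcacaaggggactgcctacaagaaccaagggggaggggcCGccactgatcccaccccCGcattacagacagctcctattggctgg
Cox5a (chr9:57520982-57521231, plus strand): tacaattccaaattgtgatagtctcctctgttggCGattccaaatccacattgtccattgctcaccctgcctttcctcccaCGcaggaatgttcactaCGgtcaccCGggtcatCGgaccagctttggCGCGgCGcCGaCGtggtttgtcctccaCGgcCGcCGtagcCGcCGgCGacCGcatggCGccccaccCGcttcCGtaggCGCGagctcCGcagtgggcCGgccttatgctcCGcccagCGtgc

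The windows held 9 CG dinucleotides in Cox7b2, 4 in Cox7a1, 8 in Cox6b2 and 26 in Cox5a, and 46.9%, 32.1% and 44.2% of protein-coding genes had as many or fewer as the 3 paralogues in this order. Promoter entries were matched for 75 of the 90 members, and their median was 15 CG dinucleotides per window against 11 for all protein-coding genes and 6 for all genes in the table. Searched on both strands, GCATGCGC, a sequence bound by NRF1, was found for 12.0% of the 75 matched members and for 3.32% of protein-coding genes (2.56% of all genes in the table). CCGGAAG, an ETS and GABPA motif, was found for 18.7% of them against 10.2% of protein-coding genes (7.83% of all). AAGATGG, part of the YY1 motif, was found for 1.33% against 4.77% (5.18% of all), CACGTG, the E-box bound by MYC, for 8.0% against 7.61% (6.86%), and TATAAA for 8.0% against 13.7% (14.3%). Of these 5 motifs the 4 printed windows held 1, a TATAAA in Cox7b2 on the strand opposite to the gene, which reads tttata in the printed window. These shares describe the letters only and were not matched for base composition.

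Sequencing depth was between 4961934 and 18071600 counts per library, and the ESC-ASC libraries were the deepest. The members took between 0.901% and 1.48% of all counts. Libraries with replicate number 1 stood apart in several groups, most clearly in their share of counts on the mitochondrial chromosome. That share was 8.08% in ESC replicate 1 against 2.70% and 2.92% in the other ESC libraries, and 14.4% in AFSC replicate 1 against 1.51% and 1.92%. In ESC-ASC it stayed between 1.58% and 1.96%. By the chi-square of counts per degree of freedom between libraries, replicate 2 was the one furthest from the others in EpiSC and ESC-ASC. It was 11.3 and 10.1 from replicates 1 and 3 in EpiSC, which were 1.96 apart, and 6.92 and 8.1 in ESC-ASC, with 2.44 between those. Leaving out replicate 1 therefore keeps the library furthest from the others in these 2 groups. The median log2 deviation of the members from their mean level was -0.75 in ASC replicate 1 against -0.09 and -0.30 in the other ASC libraries, and 0.49 in EpiLC replicate 1 against 0.01 and 0.08. The counts over all members are therefore given also without the 6 libraries of replicate 1, as are the printed counts of a complex where they moved by more than 1.5 times and by more than 1 gene, a check chosen after the data were seen, and what sets these libraries apart was not tested. The summed level of 6 naive markers was between 2811 and 4881 in ESC, ASC and ESC-ASC and between 9.04 and 120.6 in EpiLC, AFSC and EpiSC. That of 6 primed markers was between 99.2 and 269.7 in the first 3 groups and between 1034 and 3165 in the last 3. Single markers could differ from the sums. Against ESC, 5 primed markers rose in EpiLC and 1, T, fell (mean 5.68 against 20.8), and 1 naive marker rose and 5 fell in ESC-ASC. Primitive endoderm markers summed to about 65 in each EpiSC library (64.7 to 65.3) and to 9.24 to 21.2 elsewhere, and Gata6 and Sox17 made up most of it. Against ESC 2 of these 4 markers rose and 2 fell in EpiSC, and their part in the EpiSC results was not tested. Fibroblast markers summed to 74.5 to 115.7 in ASC, 50.2 to 60.5 in ESC-ASC and 45.4 to 54.9 in EpiLC. The sums were 27.9 to 46.0 in ESC, 30.2 to 48.6 in AFSC and 16.97 to 19.7 in EpiSC, with Postn under 1 in every library. These markers did not move together, since against ESC Col1a1 (56.4 against 22.4) and Thy1 (34.7 against 6.62) were higher in ASC and Col1a2 (2.44 against 6.68) was lower. In ESC-ASC nearly all of the sum was Thy1 (mean 53.3), with Col1a1 at 1.16. Trophoblast markers summed to 213.8 to 267.4 in ASC, 363.3 to 371.3 in ESC and 146.0 to 166.4 in ESC-ASC and to 15.8 to 37.0 in the other groups, with Elf5 under 1. Most of the sum was Tfap2c in ASC (mean 190.4), ESC (270.8) and ESC-ASC (144.5). The other markers did not follow it, since Krt7 was 1.174 in ESC and 13.94 in EpiSC, and Cdx2 was 51.15 in ASC and 0.3674 in ESC-ASC. The sum therefore mainly follows Tfap2c in ASC, ESC and ESC-ASC and is not a measure of trophoblast content.

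**Figure D1:**
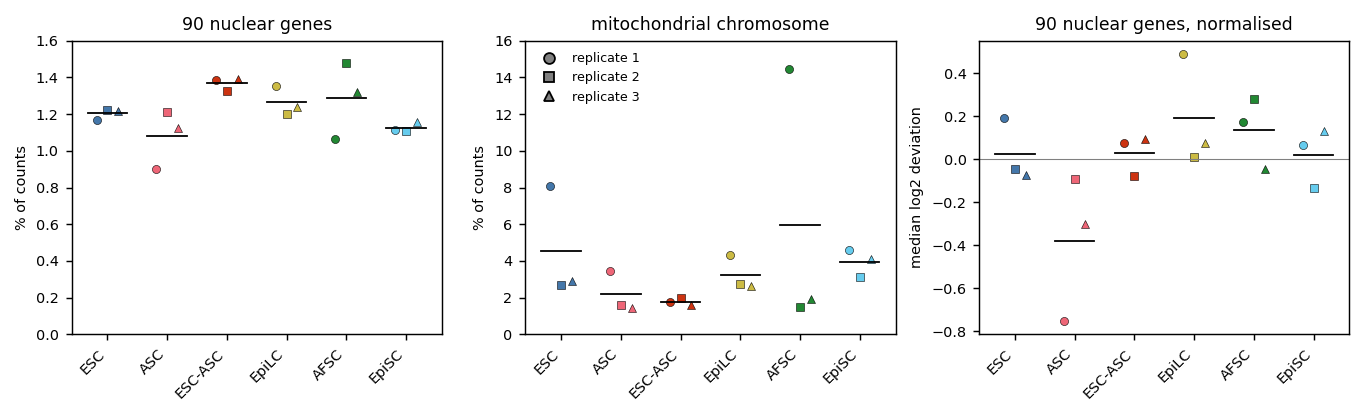
Share of counts in the 90 members (percent), share of counts on the mitochondrial chromosome (percent) and median log2 deviation of the members, for each of the 18 samples by group. Circles, squares and triangles are replicates 1, 2 and 3, and the circle of AFSC stands at 14.4% mitochondrial counts while the circle of ASC has the lowest member median, -0.75.

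Levels are given as normalised read counts per kb of exon. Across the 90 members the median level was 542, and 48 members had a highest group mean more than 2 times the lowest. The 5 highest members were Atp5b (3452) and Atp5a1 (2822), the catalytic core subunits of ATP synthase, Cox8a (3247), Atp5l (2519) and Cox5a (2416). The 5 lowest were Cox4i2 (18.3), Atp5s (34.9), Cox7b2 (47.8), Ndufaf7 (49.4) and Ndufb2 (71.0), and 2 of them are the tissue-restricted complex IV forms described next. Tested over all 6 groups at once with edgeR's quasi-likelihood F test, 88 of 90 members differed (adjusted p under 0.05), beside 94.4% of all genes tested. The exceptions were Ndufb4, which has adjusted p = 0.0524 in edgeR and was named after its value was seen, and Cox7b at adjusted p = 0.14 in edgeR. ASC had the lowest group mean for 47 members and the highest for 2. The highest mean was in ESC-ASC for 23 members, in EpiLC for 20, in AFSC for 19 and in ESC and EpiSC for 13 each. These counts include ASC replicate 1, with a member median of -0.75, and were not made for all genes tested. In these bulk samples fewer cells expressing a gene and less RNA per cell cannot be told apart.

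Ndufa4l2 had the widest range among groups of any member that was detected in all of them. Ndufa4l2 (chr10:127514939-127517152, plus strand) is a paralogue of Ndufa4 known to be induced at low oxygen through HIF-1, and Ndufa4 itself, named for complex I, is now placed in complex IV. The Ndufa4l2 level was 4.11, 2.42 and 2.33 in the 3 ESC libraries, each from 2 counts, and 2.74, 4.59 and 5.98 in EpiSC. It was 16.9, 19.3 and 20.5 in AFSC and 114.4, 128.1 and 122.7 in EpiLC. The ASC libraries had 201.3, 443.7 and 316.5, and the ESC-ASC libraries 941.6, 990.0 and 1052. Apart from ESC and EpiSC, whose ranges met, no 2 groups overlapped, and the order ran from ESC and EpiSC through AFSC, EpiLC and ASC to ESC-ASC.

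Against ESC, Ndufa4l2 rose by a log2 fold change of 6.77 in ASC (SE 0.35, edgeR adjusted p = 4.64e-11) and 8.42 in ESC-ASC (SE 0.34, edgeR adjusted p = 7.07e-13). Because the ESC baseline was 6 counts in all, the ratio of summed normalised counts was 117 in ASC, with a 95% counting interval of 53.6 to 318, and 360 in ESC-ASC (165 to 981). No ESC or EpiSC library reached the count minimum for this gene, so it was admitted only through groups that were higher than ESC. It rose by 5.40 (SE 0.38) in EpiLC and by 2.73 (SE 0.51) in AFSC. In EpiSC the estimate was 0.69 (SE 0.66, edgeR adjusted p = 0.378), which did not pass. ASC exceeded their parental AFSC by 4.04 (SE 0.25), and ESC-ASC exceeded ASC by 1.65 (SE 0.19, edgeR adjusted p = 9.78e-07). Of the summed level of Ndufa4 and Ndufa4l2, Ndufa4l2 made up 0.466% in ESC, 30.4% ± 4.4 (SD, n = 3) in ASC and 52.4% ± 2.3 in ESC-ASC. The Ndufa4 level itself spanned only 1.72 times between its lowest and highest groups.

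Cox4i2, the form of cytochrome oxidase subunit 4 known from lung and from low oxygen, was also highest in the cells grown in ABCL. Cox4i2 (chr2:152754173-152765037, plus strand) reached 37.0, 79.1 and 68.2 in ASC and 31.3, 43.3 and 41.4 in ESC-ASC. EpiLC had 5.87, 7.86 and 5.44, from 4, 7 and 4 counts, and each ESC library had 1 count. The AFSC libraries had 1, 0 and 1 counts and the EpiSC libraries 1, 0 and 0. The 2 groups grown in ABCL thus stood apart from the other 4 in every library, and overlapped each other.

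The ratio to ESC was 36.6 in ASC (95% counting interval 12.5 to 178) and 23.0 in ESC-ASC (7.87 to 112). The fitted log2 fold changes were 5.05 (SE 0.52) and 4.39 (SE 0.54). Cox4i2 met the count minimum only through the ASC and ESC-ASC libraries, so these values describe the counts and are not taken as a test of those groups. ASC exceeded EpiSC, which had 1 count in all, by a ratio of 143 (25.6 to 5640). The EpiLC estimate of 1.86 (SE 0.75) had an edgeR adjusted p of 0.0429, rested on 15 counts against 3, and lost its call when any 1 ESC or EpiLC library was left out. ESC-ASC and ASC did not pass (-0.65, SE 0.28, edgeR adjusted p = 0.0559). Cox4i2 stayed a small part of subunit 4, at 3.76% of the summed Cox4i1 and Cox4i2 level in ASC and 1.74% in ESC-ASC. Cox4i1, the common form, varied by 1.43 times between its extreme groups.

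**Figure D2:**
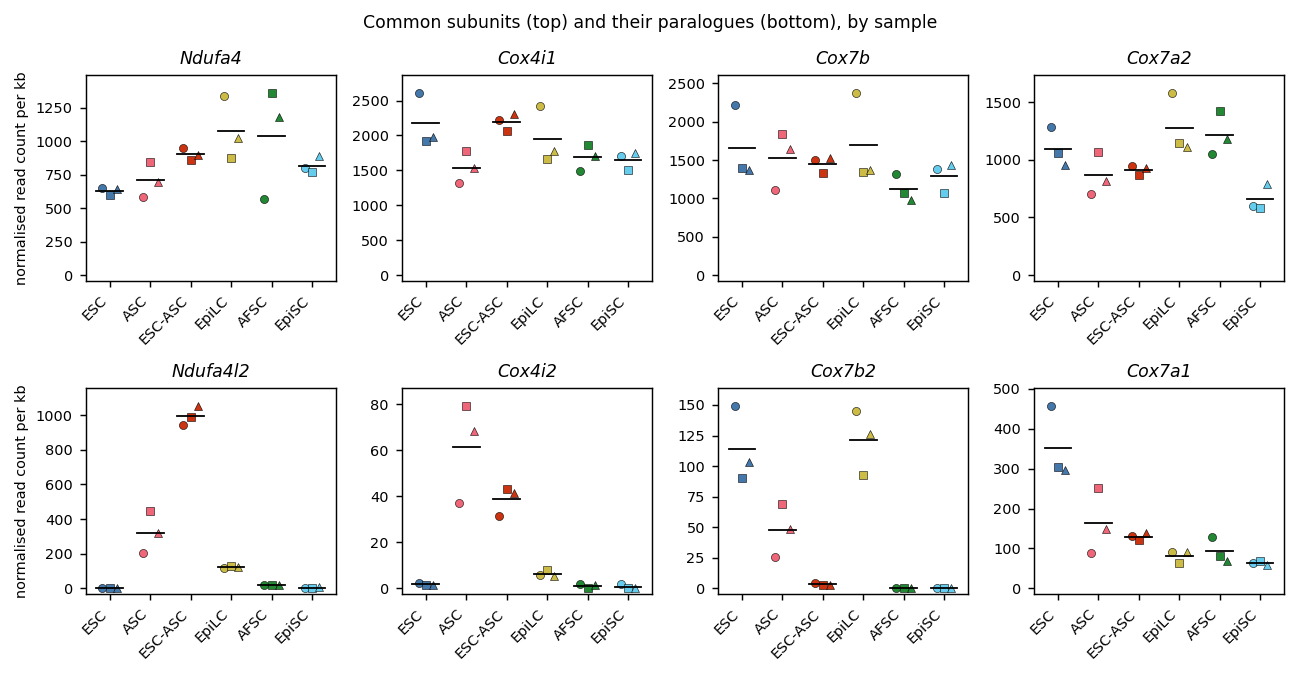
Level (normalised read counts per kb) of 4 common subunits (top, Ndufa4, Cox4i1, Cox7b and Cox7a2) and their paralogues (bottom, Ndufa4l2, Cox4i2, Cox7b2 and Cox7a1) in the 6 groups, with a bar at the group mean and a circle, square and triangle for replicates 1, 2 and 3. The common forms are present in all groups, whereas Ndufa4l2 climbs to a mean of 994.5 in ESC-ASC, Cox4i2 is near 0 outside ASC, ESC-ASC and EpiLC, and Cox7b2 is at 0 in AFSC and EpiSC.

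Cox7b2, a form of subunit 7b known from testis, divided the groups another way. Cox7b2 (chr5:71442824-71548205, minus strand) had levels of 149.1, 90.2 and 103.0 in ESC and 145.0, 93.1 and 126.4 in EpiLC. ASC had 25.9, 69.0 and 48.6 and ESC-ASC 4.65, 2.70 and 2.78. All 6 AFSC and EpiSC libraries had no count. No ASC library reached the lowest ESC or EpiLC library, and no ESC-ASC library reached the lowest ASC library.

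With the AFSC and EpiSC groups set to a floor of 3 counts over the group, Cox7b2 was at least 50.4-fold higher in ESC than in AFSC and at least 57.6-fold higher than in EpiSC. ASC, which were derived from AFSC, were at least 22.3-fold higher than AFSC. The EpiLC estimate against ESC was 0.12 (SE 0.30, edgeR adjusted p = 0.759). In ESC-ASC Cox7b2 fell by 4.98 on the log2 scale (SE 0.42, edgeR adjusted p = 8.49e-08) relative to ESC and by 3.74 (SE 0.45) relative to ASC. In ASC it fell by 1.24 relative to ESC (SE 0.32, edgeR adjusted p = 0.00533), or by 0.70 without the libraries of replicate 1. It made up 6.45% of the summed Cox7b and Cox7b2 level in ESC and 0.231% in ESC-ASC, so Ndufa4l2 and Cox4i2 on the one hand and Cox7b2 on the other differed between ESC and ESC-ASC in opposite directions.

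Cox7a1, the heart and muscle form of subunit 7a, was highest in ESC. Cox7a1 (chr7:30184144-30186078, plus strand) had levels of 456.9, 304.5 and 296.3 in ESC, and its highest level in any other library was 252.4, in ASC. Its mean was 81.8 in EpiLC, 92.8 in AFSC and 63.5 in EpiSC. It fell relative to ESC by 2.46 in EpiSC (SE 0.31, edgeR adjusted p = 9.43e-07), by 2.09 in EpiLC (SE 0.30), by 1.92 in AFSC (SE 0.30) and by 1.43 in ESC-ASC (SE 0.27). In ASC the fall was 1.12 (SE 0.28), or 0.57 without replicate 1. Cox7a1 was 24.1% of the summed Cox7a1 and Cox7a2 level in ESC and between 6.08% and 15.2% in the other groups.

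Cox6b2, a testis form of subunit 6b, did not overlap between the 2 primed groups. Cox6b2 (chr7:4751792-4753094, minus strand) had levels of 603.1, 402.2 and 422.1 in ESC, 669.7, 538.2 and 405.9 in AFSC and 504.3, 515.7 and 500.4 in ESC-ASC. EpiSC had 239.7, 182.2 and 227.8, and EpiLC 134.6, 106.2 and 104.4, both below every library of those 3 groups. It fell relative to ESC by 2.03 in EpiLC (SE 0.21, edgeR adjusted p = 1.18e-07) and by 1.14 in EpiSC (SE 0.20, edgeR adjusted p = 6.51e-05), and the AFSC estimate was 0.19 (SE 0.20, edgeR adjusted p = 0.418). In ASC the mean was 361.0 and the estimate did not pass (-0.41, SE 0.20, edgeR adjusted p = 0.0908). Cox6b2 made up 13.6% ± 0.7 (SD, n = 3) of the summed Cox6b1 and Cox6b2 level in ESC, 7.08% ± 0.33 in EpiLC and 9.18% ± 0.63 in EpiSC. Its share was 23.3% ± 1.2 in ESC-ASC, 21.5% ± 0.7 in ASC and 20.4% ± 1.8 in AFSC. Against ESC, Cox6b1 fell in ESC-ASC (-0.88, SE 0.23), where Cox6b2 did not pass (0.09, SE 0.19).

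Cox5a, a core-associated nuclear subunit of complex IV, had levels of 3174, 3875 and 3684 in ESC and 2535, 3391 and 3346 in ASC. ESC-ASC had 3366, 3107 and 3386. EpiLC had 1677, 1773 and 1792, AFSC 705.8, 1804 and 1624 and EpiSC 1300, 1482 and 1474, so that no library of these 3 groups reached those of the first 3. It fell relative to ESC by 1.35 in EpiSC (SE 0.23, edgeR adjusted p = 3.93e-05), 1.37 in AFSC (SE 0.23) and 1.03 in EpiLC (SE 0.23), and did not pass against ESC in ASC (-0.24, edgeR adjusted p = 0.395) or in ESC-ASC (-0.13, edgeR adjusted p = 0.621). Cox5a (chr9:57521232-57532424, plus strand) shares 38.7% of its exonic bases with Gm26631 on the opposite strand. Counting used no strand and gave shared fragments to both, so 3010 counts of Gm26631 stood beside 5686 of Cox5a in ESC and reads of the 2 genes cannot be told apart there.

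EpiSC and ESC were compared to ask how the primed state after implantation differs from the naive one. In EpiSC more complex I assembly factors rose than fell, and every complex IV gene that passed was lower. Over all members 16 rose (17.8%) and 20 fell (22.2%), beside 29.2% and 32.0% of all genes tested, and the median log2 fold change was 0.01 (-0.04 over all genes). Without replicate 1 the counts were 33 (36.7%, beside 33.5% of all genes) and 21 (23.3%, beside 35.3%), and complex I then had 16 higher where it had 7 with all libraries, and complex V 8 where it had 3. Of the 8 complex I assembly factors 5 rose and 2 fell (median 0.61), while of 15 complex IV genes none rose and 7 fell (median -0.52, or -0.27 with 2 higher without replicate 1).

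The largest rise was Atp5s, a coupling factor linked to ATP synthase, with 46.9, 29.1 and 47.0 in EpiSC against 19.9, 12.5 and 12.0 in ESC, a log2 fold change of 1.495 (SE 0.33, edgeR adjusted p = 0.00057). The complex I accessory subunit Ndufb3 rose by 0.93 (SE 0.22) and Ndufc2 by 0.92 (SE 0.21), and the assembly factors Ndufaf3 and Ndufaf6 by 0.85 (SE 0.20) and 0.81 (SE 0.18). Ndufaf5, an assembly factor that modifies the core subunit Ndufs7, went the other way and fell by 1.01 (SE 0.18, edgeR adjusted p = 5.53e-05). Of the core complex I subunits named here, Ndufs3 rose (0.69), and Ndufs1, Ndufs7, Ndufs8, Ndufv1 and Ndufv2 did not pass. In complex II, the iron-sulphur subunit Sdhb fell by 0.56 (SE 0.17) and the membrane anchor Sdhc by 0.58 (SE 0.16), while Sdha (-0.48, edgeR adjusted p = 0.0537) and Sdhd (0.09) did not pass. Beyond the paralogues and Cox5a, the complex IV genes Cox6a1 (-0.85, SE 0.15) and Cox7a2 (-0.74, SE 0.18) fell, and Atp5g1, an isoform of the c-ring subunit of ATP synthase, fell by 0.95 (SE 0.15).

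**Figure D3:**
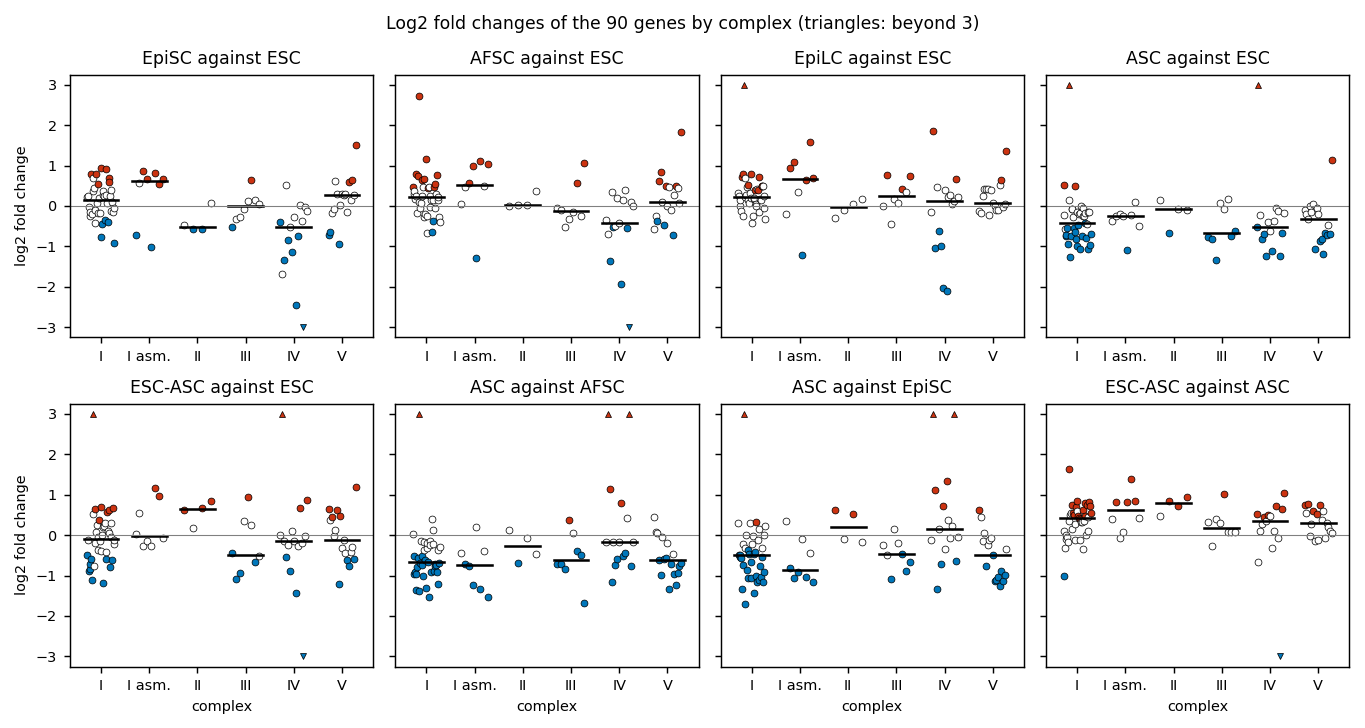
Fitted log2 fold change of each of the 90 members, by complex, in the 8 comparisons, where each point is a gene and the line is the median of the complex. Red points passed as higher, blue points as lower, white points did not pass, and triangles lie beyond 3. Complex IV sits low against ESC in EpiSC (median -0.52), and most complex I genes sit low in ASC against AFSC (median -0.67).

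In AFSC, the primed cells from which ASC were derived, complex I genes and assembly factors rose more often than they fell against ESC, complex I at a share (28.9%) close to that of all genes tested, and none of the 15 genes with Cox symbols rose. Of the members 22 rose (24.4%) and 11 fell (12.2%), beside 29.7% and 30.8% of all genes tested, with a median of 0.13 (-0.03 over all genes). Without replicate 1, 39 were higher (43.3%, beside 32.8% of all genes) and 15 lower (16.7%, beside 34.4%). Complex I had 11 higher and 2 lower of 38, assembly factors 4 higher and 1 lower of 8, complex V 5 higher and 3 lower of 17, and complex IV none higher and 5 lower of 15. Without replicate 1 complex I had 19 higher, complex V 8 and complex IV 3, which were Cox5b, Cox7a2 and Cox7a2l (named after their values were seen). Ndufa4, counted here by its symbol with complex I, rose by 0.73 (SE 0.23, edgeR adjusted p = 0.00913). Atp5s rose by 1.84 (SE 0.32, edgeR adjusted p = 6.79e-05), Ndufb3 by 1.16 (SE 0.22), Ndufaf6 by 1.11 (SE 0.18) and Ndufaf8 by 1.04 (SE 0.22). The complex III subunit Uqcrq rose by 1.07 (SE 0.24), from 822.5, 518.6 and 571.8 in ESC to 1523, 1271 and 1189 in AFSC, with no overlap. Ndufaf5 fell by 1.30 (SE 0.18), with 52.8, 60.2 and 44.6 in AFSC against 148.8, 126.2 and 114.8 in ESC. The 4 complex II genes had log2 fold changes between 0.005 and 0.38 and none passed. Ndufc2, which rose in EpiSC, fell in AFSC (-0.65, SE 0.21), although without replicate 1 it was -0.32 (edgeR adjusted p = 0.133).

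EpiLC, formed from naive cells within the transition towards the primed state, had 22 members higher (24.4%) and 6 lower (6.67%) than ESC, beside 28.7% and 26.6% of all genes tested. The median was 0.21 (0.06 over all genes) and the counts without replicate 1 were 28 (31.1%, beside 31.3% of all genes) and 13 (14.4%, beside 30.8%), with a median of 0.10. Without EpiLC replicate 1 alone, 10 members were higher, and without ESC replicate 3 alone 14 were. Complex I had 10 higher and none lower of 38, assembly factors 5 higher and 1 lower of 8, and complex III 3 higher and none lower of 8. Without replicate 1, 3 complex I genes and 1 complex III gene were lower. Ndufaf7, a complex I assembly factor, rose by 1.57 (SE 0.22, edgeR adjusted p = 4.99e-06), Atp5s by 1.37 (SE 0.33), Ndufaf3 by 1.08 (SE 0.20) and Ndufaf2 by 0.93 (SE 0.26). The core subunits Ndufs1 (0.41, SE 0.11) and Ndufs3 (0.72, SE 0.16) rose as well. The 6 members that fell were Cox7a1, Cox6b2, Ndufaf5 (-1.22, SE 0.18), Cox5a, Cox6b1 (-1.002, SE 0.23) and Cox6a1 (-0.62, SE 0.15).

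Members were lower in ASC than in ESC more often than higher, but the size of this difference depended on the libraries of replicate 1. Of the 90 members 5 rose (5.56%) and 39 fell (43.3%), beside 26.4% and 23.9% of all genes tested, and the median was -0.39 (0.02 over all genes). Leaving out replicate 1 gave 8 higher (8.89%, beside 27.6% of all genes) and 24 lower with a median of -0.15, of which 5 and 23 were also called with all libraries. The 24 are 26.7% of the members, close to the 24.6% of all genes called lower in that fit. Without ESC replicate 1 alone 25 fell. Scaling by library totals only moved the median of all genes by 0.20 and the share of higher among all called genes from 52.5% to 68.1%, and under every scaling tried the members' median kept its sign. Complex I had 18 of 38 lower and 3 higher, complex III 5 of 8 lower, complex IV 7 of 15 and complex V 7 of 17, whereas only 1 of 8 assembly factors (Ndufaf5) and 1 of 4 complex II genes (Sdhb) fell. Without replicate 1 complex I had 9 lower (median -0.15 after -0.43) and complex IV 4 (-0.13 after -0.51), while complex III had 4 (-0.22 after -0.68) and complex V 5 (-0.23 after -0.32). In ASC the summed fibroblast markers were above and the trophoblast markers below every ESC library, as given above. Of the 3 genes tested in each list, 2 fibroblast markers rose and 1 fell, and 0 trophoblast markers rose and 2 fell. The part of these markers in these results was not tested.

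Uqcrb, a small complex III subunit, had 470.8, 807.7 and 690.0 in ASC and 2410, 1266 and 1281 in ESC, and fell by 1.34 (SE 0.28, edgeR adjusted p = 0.000753). Without replicate 1 the fall was 0.76 (edgeR adjusted p = 0.000337). The complex IV subunit Cox6b1 fell by 1.24 (SE 0.23), the complex V subunit Atp5j2 by 1.19 (SE 0.26) and the core complex I subunits Ndufs8 and Ndufv2 by 1.06 (SE 0.24) and 0.96 (SE 0.24). Without replicate 1 these were 0.77, 0.73, 0.65 and 0.50 lower, all still called. In each of these genes ASC replicate 1 was the lowest ASC library, and ESC replicate 1 the highest ESC library. Atp5g1 fell by 1.07 (SE 0.15, edgeR adjusted p = 1.18e-05). Sdhb fell by 0.66 (SE 0.17), to 0.40 lower without replicate 1, and Sdha (0.14), Sdhc (-0.07) and Sdhd (-0.09) did not pass. The genes that rose were Ndufa4l2, Cox4i2, Atp5s (1.14, SE 0.33), Ndufa1 (0.52, SE 0.19) and Ndufb11 (0.50, SE 0.16). Without Cox4i2, Cox7b2 and Ndufa4l2, 3 of 87 members rose (3.45%) and 38 fell (43.7%), beside 26.4% and 23.9% of all genes tested.

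**Figure D4:**
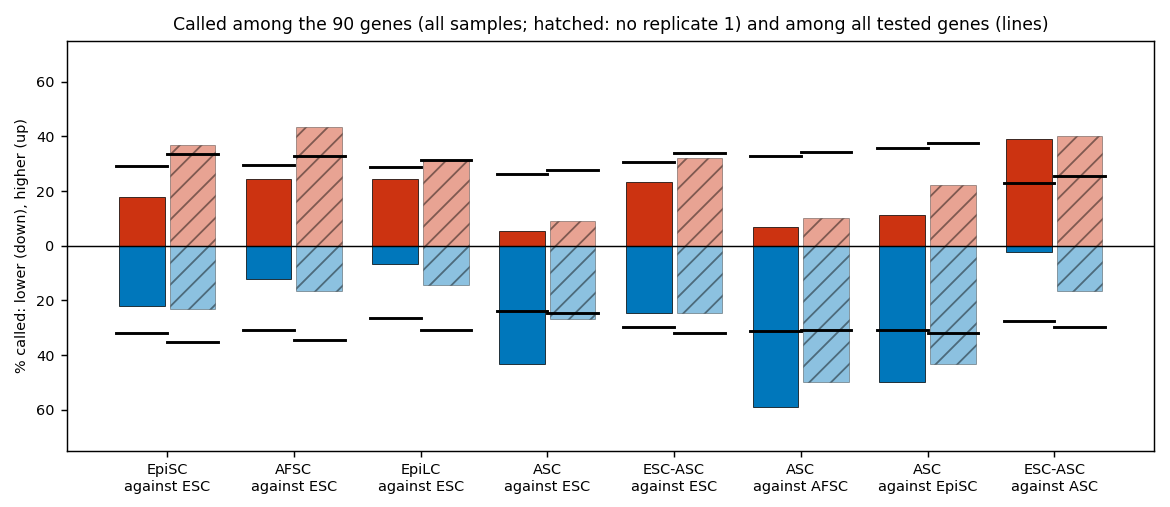
Percent of the 90 members called higher or lower in each of the 8 comparisons, with all samples (solid) and without the libraries of replicate 1 (hatched), and a line across each bar at the percent of all genes tested in the same fit. ASC have 43.3% lower against ESC and 58.9% against AFSC with all samples, and 26.7% (24 of 90) and 45 of 90 without replicate 1, beside lines at 24.6% and 30.8%.

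Ndufa1, Ndufb11 and Cox7b are the members on the X chromosome, a feature looked at after their values were seen. Ndufa1 was 937.9, 1252 and 1097 in ASC and 490.6, 520.9 and 597.0 in ESC-ASC, without overlap, and was lower in ESC-ASC by 1.02 (SE 0.18, edgeR adjusted p = 0.000159). It was 945.7, 669.3 and 668.7 in ESC, overlapping ASC. Cox7b was -0.13 in ASC against ESC (edgeR adjusted p = 0.649), but 0.34 and called without replicate 1 (edgeR adjusted p = 0.0219). Ndufb11 differed from ESC by 0.66 in AFSC (SE 0.16) and 0.38 in ESC-ASC (SE 0.16), both called.

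Set against the AFSC they came from, ASC had 53 members lower (58.9%) and 6 higher (6.67%), beside 31.2% and 32.8% of all genes tested, and a median of -0.58 (0.02 over all genes). Without replicate 1 the counts were 45 of 90 lower (beside 30.8% of all genes) and 9 of 90 higher (beside 34.4%), 42 and 6 of them in both, with a median of -0.32. Complex I had 24 of 38 lower, assembly factors 5 of 8, complex III 6 of 8 and complex V 11 of 17 with none higher. Without replicate 1 complex III had 3 lower, and complex V 9 lower and 1 higher. The summed fibroblast and trophoblast markers were both above every AFSC library in ASC. In each of these 2 lists 2 of the 3 genes tested rose and 1 fell, and the part of these markers was not tested. Complex IV had 6 lower and 4 higher of 15, and the 4 higher were Cox7b2, Cox4i2, Cox5a and Cox7a1. Of these, Cox7b2 and Cox4i2 had 0 and 2 counts in AFSC, and Cox4i2 is not taken as a test. Without Cox4i2, Cox7b2 and Ndufa4l2, 3 of 87 members were higher (3.45%) and 53 lower (60.9%). Cox5a rose by 1.14 (SE 0.23), and Cox7a1 by 0.80 (SE 0.30), or by 0.35 without ASC replicate 2, when the call was lost.

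Uqcrq had the largest fall of the 90 members, by 1.68 (SE 0.24, edgeR adjusted p = 7.33e-06), with 255.3, 547.0 and 460.7 in ASC against 1523, 1271 and 1189 in AFSC. The assembly factors Ndufaf8 and Ndufaf6 fell by 1.54 (SE 0.22) and 1.33 (SE 0.18), the complex I subunits Ndufb7 and Ndufa2 by 1.53 (SE 0.23) and 1.35 (SE 0.20), and Atp5h, the d subunit of ATP synthase, by 1.34 (SE 0.23). Without replicate 1, Ndufb7 was 0.97 lower and Atp5h 0.89 lower, both called. Of the core complex I subunits Ndufs3 (-0.90), Ndufs7 (-0.92), Ndufs8 (-1.21) and Ndufv2 (-0.69) fell, although Ndufs8 was -0.66 and Ndufv2 -0.28 without replicate 1, the latter no longer called (edgeR adjusted p = 0.0884), and Ndufs1 and Ndufv1 did not pass. Sdhb fell by 0.69 (SE 0.17). Since AFSC replicate 1 had 14.4% of its counts on the mitochondrial chromosome, the fit was repeated without those counts, and neither count of members moved by more than 1.5 times. That fit still held the library itself, so it cannot show how much the calls depend on it. Without AFSC replicate 1 alone, 50 members were called, 47 of them among the 59 called with all libraries.

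ASC also had more members below than above EpiSC, 45 of 90 against 10 (11.1%), beside 30.7% and 35.9% of all genes tested, with a median of -0.43 (0.07 over all genes). The counts without replicate 1 were 39 (43.3%, beside 32.0% of all genes) and 20 (22.2%, beside 37.6%), with a median of -0.20. Complex I had 24 of 38 lower and 2 higher (18 and 6 without replicate 1), assembly factors 5 of 8 lower and complex V 9 of 17. Both marker sums were again above every EpiSC library in ASC, with 3 fibroblast and 2 trophoblast markers higher and 0 and 1 lower. Complex II had 2 of 4 genes higher and 0 lower. Complex IV had 5 of 15 higher (33.3%, beside 35.9% of all genes tested) and 3 lower. Cox4i2 and Cox7b2, with 1 and 0 counts in EpiSC, are among those 5, and Cox4i2 is not taken as a test. Without Cox4i2, Cox7b2 and Ndufa4l2, 7 of 87 members were higher (8.05%) and 45 lower (51.7%). Sdha rose by 0.62 (SE 0.21), a call lost without EpiSC replicate 1 (0.57) or 3 (0.58), and Sdhc by 0.51 (SE 0.16). Cox7a1 rose by 1.35 (SE 0.31), or 0.89 without ASC replicate 2, Cox5a by 1.11 (SE 0.23) and Cox6b2 by 0.73 (SE 0.20). The largest falls without overlap were Ndufa5 (-1.72, SE 0.35), Ndufb7 (-1.43, SE 0.23), Ndufa2 (-1.33, SE 0.20), Cox5b (-1.32, SE 0.23), Atp5k (-1.26, SE 0.24) and Ndufs8 (-1.17, SE 0.24), where Cox5b and Atp5k are nuclear subunits of complexes IV and V.

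ESC-ASC were compared with ESC, the kind of cell they were converted from, and with ASC, which share their medium but come from AFSC. The line behind the ESC-ASC libraries is not given, nor whether the ESC libraries are of its parent line. A difference between lines therefore cannot be told apart from a change with the medium. Against ESC, 21 members rose (23.3%) and 22 fell (24.4%), beside 30.6% and 29.6% of all genes tested, with a median of -0.10 (0.03 over all genes). Without replicate 1 it was 29 (32.2%, beside 34.0% of all genes) and 22 (24.4%, beside 32.1%), and the median was 0.04. Without ESC replicate 1 alone 13 fell. Complex II, succinate dehydrogenase, had 3 of 4 genes higher and none lower (median 0.64), while complex III had 4 of 8 lower and 1 higher and complex I 7 higher and 10 lower of 38 (12 and 8 without replicate 1). Without Cox4i2, Cox7b2 and Ndufa4l2, 19 of 87 members rose (21.8%) and 21 fell (24.1%).

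Sdhd, a membrane anchor of complex II, had 998.7, 941.8 and 1063 in ESC-ASC against 381.4, 660.0 and 605.4 in ESC, and rose by 0.85 (SE 0.21, edgeR adjusted p = 0.00179). Sdhc, the other anchor, rose by 0.66 (SE 0.15), from 127.4, 137.1 and 137.0 to 220.8, 194.9 and 226.0. Sdha, the flavoprotein that oxidises succinate, had 676.4, 682.1 and 695.4 against 299.5, 502.2 and 519.8 and rose by 0.62 (SE 0.21, edgeR adjusted p = 0.0153), or 0.40 without ESC replicate 1, when the call was lost. Sdhb was 0.19 (edgeR adjusted p = 0.338). Uqcrc2, a core protein of complex III, rose by 0.94 (SE 0.12, edgeR adjusted p = 2.12e-06), with 1095, 983.9 and 1098 against 562.3, 548.5 and 531.5, and shares 19.8% of its exonic bases with Pdzd9 on the opposite strand. Cox8a rose by 0.87 (SE 0.16) and Ndufaf6 by 1.18 (SE 0.18), and the core subunits Ndufs1 and Ndufv1 by 0.57 (SE 0.11) and 0.67 (SE 0.22), the latter not called without ESC replicate 1 (0.46). Atp5g1 fell by 1.22 (SE 0.15), Ndufb7 by 1.18 (SE 0.23), Ndufa3 by 1.12 (SE 0.21) and the complex III subunit Uqcr11 by 1.07 (SE 0.23). Every sample of ESC-ASC lay outside the range of ESC for each member named in this paragraph except Sdhb.

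Relative to ASC, ESC-ASC had 35 members higher (38.9%) and 2 lower (2.22%), beside 23.0% and 27.7% of all genes tested, with a median of 0.40 (-0.05 over all genes). Leaving out replicate 1 gave 36 of 90 (beside 25.5% of all genes) and 15 (16.7%, beside 29.7%), with 30 and 2 in both sets and a median of 0.21, and leaving out ASC replicate 1 alone gave 21 higher and 6 lower. Under library totals only, the share of higher among all called genes went from 45.4% to 33.8%, and 4 members were lower. Complex III had 1 higher and none lower of 8, and the others had 16 and 1 of 38 in complex I, 4 and 0 of 8 assembly factors, 3 and 0 of 4 in complex II, 6 and 1 of 15 in complex IV and 5 and 0 of 17 in complex V. Of the 15 lower without replicate 1, 6 were in complex I, 1 in complex III, 4 in complex IV and 4 in complex V. Ndufaf6 rose by 1.39 (SE 0.18), Cox8a by 1.04 (SE 0.16, edgeR adjusted p = 3.49e-05), Uqcrc2 by 1.02 (SE 0.12), Sdhd by 0.94 (SE 0.21), Sdhb by 0.85 (SE 0.16) and Ndufb3 by 0.85 (SE 0.21). The 2 that fell were Cox7b2 and Ndufa1. The ESC-ASC libraries held 17813619 to 18071600 counts and the ASC libraries 7165615 to 8148294, and ASC replicate 1 had the lowest member median of all 18 samples.

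Summed within complexes as length-normalised shares of each library (TPM, computed here from the counts and exonic lengths over all genes), complex IV was 4554 ± 18.5 (SD, n = 3) in ESC, 5025 ± 54.3 in ESC-ASC and 4332 ± 513 in ASC, against 3297 ± 169 in EpiSC and 3807 ± 143 in EpiLC. AFSC replicate 1 had 2851 where the other AFSC libraries had 4725 and 4135. The sums of EpiSC and EpiLC lay below every ESC and ESC-ASC library. In ASC complex III summed to 1462 ± 234, below every ESC library (1736 ± 17), whereas the other complexes overlapped between ASC and ESC, with 4055 ± 526 in ASC and 3836 ± 44 in ESC in complex I, 4345 ± 584 and 4277 ± 889 in complex V, and 14740 ± 1859 and 14890 ± 940 over all members. Complex II was 523 ± 11 in ESC-ASC and 255 ± 39 in EpiSC, and ESC replicate 1 (206.2) lay below the other ESC libraries (375.3 and 356.8). Over all 90 members the group means of these sums ran from 13720 in EpiSC to 16640 in ESC-ASC. The TPM of a library add up to a fixed total that includes the mitochondrial transcripts.

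**Figure D5:**
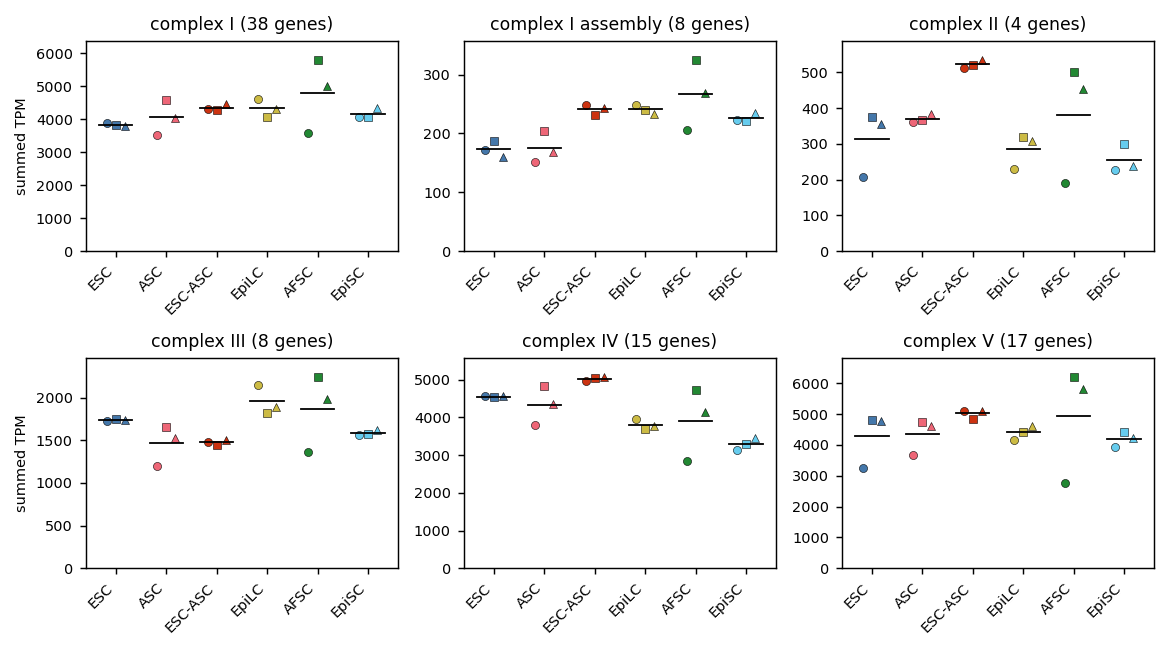
Summed TPM of the members of each complex in each of the 18 samples, by group, with a bar at the group mean and a circle, square and triangle for replicates 1, 2 and 3. Complex IV is at 3126 to 3464 in EpiSC and at 4533 to 4568 in ESC, and complex II is highest in ESC-ASC, at 512.6 to 535.2.

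Short transcripts were a large part of the family, since the members had a median exonic length of 1475 bases against 3498 for all genes tested. The 29 members under 1000 bases and the 61 longer ones went the same way in ASC against AFSC (18 of 29 and 35 of 61 lower, medians -0.71 and -0.52) and in ASC against ESC (13 of 29 and 26 of 61 lower, medians -0.48 and -0.32). Of all genes tested 31.2% and 23.9% were lower in these 2 comparisons. In ESC-ASC against ASC the longer members had 28 of 61 higher (45.9%) and none lower, and the short ones 7 (24.1%) and 2 (6.9%) of 29, beside 23.0% and 27.7% of all genes tested. In ESC-ASC against ESC the short ones had 5 higher (17.2%) and 12 lower (41.4%) of 29. The longer ones had 16 higher (26.2%) and 10 lower (16.4%) of 61, beside 30.6% and 29.6% of all genes tested. Calls were not counted by length without replicate 1 or over all short genes. All genes tested under 1000 bases had medians of -0.08 in ASC against ESC and 0.10 in ASC against AFSC. Of the 90 members 24 share exonic bases with another gene, none for more than 50% of their length.

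Outside the 90 members, lists of related genes were read in the same fit. Cyct, the cytochrome c of testis, was at or near 0 in both primed groups, as Cox7b2 was. Its counts were 14, 10 and 6 in ESC and 47, 35 and 34 in EpiLC, but 1, 0 and 0 in AFSC and 0, 0 and 1 in EpiSC. In ASC they were 41, 56 and 45 and in ESC-ASC 136, 98 and 107, so that, unlike Cox7b2, Cyct rose relative to ESC in both (1.85, SE 0.38, and 2.02, SE 0.37). The ratio of ESC to EpiSC was 39.0 (95% counting interval 7.0 to 1540), and that of ASC to AFSC was 130 (23.4 to 5150). Cycs, the somatic cytochrome c, rose in EpiSC (0.99, SE 0.19), EpiLC (0.83, SE 0.19) and AFSC (0.47, SE 0.19) and fell in ASC (-0.68, SE 0.19). All 5 genes of this list, which adds Cyc1, Atpif1 and Usmg5, rose in EpiLC, with or without replicate 1, beside 28.7% of all genes tested.

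The 13 subunits encoded in mitochondrial DNA, which meet the nuclear subunits in the same complexes, varied with replicate 1 as described above. Against ESC, 0 rose and 1 fell in ASC and 0 rose and 6 fell in ESC-ASC, with medians of -1.39 and -1.61. Without replicate 1 all 13 fell in ASC (median -1.10) and 10 fell in ESC-ASC (-0.78), and all 13 fell in AFSC (-0.86), where none had passed in either direction before. In that fit 24.6%, 32.1% and 34.4% of all genes were lower in ASC, ESC-ASC and AFSC. In EpiSC 0 passed with all libraries and 7 rose without replicate 1, with a median of 0.47 after -0.26. In ASC against EpiSC all 13 fell without replicate 1 (median -1.68) and 1 did with it. In ESC-ASC, 6 were already lower with all libraries. The number of calls thus depended on whether the libraries of replicate 1 were included, and the summed TPM of the 13 was 119200 ± 134400 (SD, n = 3) in AFSC.

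Counts of these lists are with all libraries unless stated. Of 19 complex IV assembly factors 11 fell and 1 rose in ASC against AFSC, beside 31.2% and 32.8% of all genes tested. In ASC against ESC 7 fell and 1 rose, beside 23.9% and 26.4%. Without replicate 1, 8 fell and 2 rose against AFSC, beside 30.8% and 34.4% of all genes. Against ESC 5 of the 19 then fell and 2 rose, beside 24.6% and 27.6%, so the share that fell was close to that of all genes. Among 19 other assembly factors 10 fell and none rose in ASC against AFSC, with or without replicate 1. In ESC-ASC against ASC 12 rose and 1 fell, beside 23.0% and 27.7% of all genes tested, and 13 rose and 2 fell without replicate 1. Of the 8 complex I assembly factors 4 rose and none fell in the latter comparison. The 14 genes of the TCA cycle, the source of NADH and succinate, had 7 lower and 2 higher in EpiSC against ESC, beside 32.0% and 29.2% of all genes tested. They had 9 higher and 1 lower in ESC-ASC against ASC. Without replicate 1 the counts were 9 lower and 2 higher in EpiSC, and 9 higher and 2 lower in ESC-ASC against ASC. Idh2, the NADP-dependent mitochondrial isocitrate dehydrogenase, fell against ESC by 1.69 in EpiSC (SE 0.16), 2.11 in AFSC (SE 0.17) and 2.15 in EpiLC (SE 0.17). Dlst, a subunit of the oxoglutarate dehydrogenase complex, rose by 1.36 in EpiSC (SE 0.10), and Ogdh, another of its subunits, fell there by 1.13 (SE 0.15).

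Of 15 regulators of mitochondrial genes 13 were tested. Against ESC, 2 rose and 5 fell in ASC, beside 26.4% and 23.9% of all genes tested. In ESC-ASC 3 rose and 6 fell, beside 30.6% and 29.6%, and in AFSC 4 and 7, beside 29.7% and 30.8%. In EpiSC 2 rose and 5 fell, beside 29.2% and 32.0%, and in EpiLC 4 and 4, beside 28.7% and 26.6%. Esrrb, an oestrogen-related receptor of the naive network, fell by 9.65 in EpiSC (SE 0.34), in AFSC the estimate was -8.43 (SE 0.31), and it was at -0.03 in ASC (edgeR adjusted p = 0.906). Gabpa, which binds the ETS motif given above, fell in EpiSC (-0.89, SE 0.14), AFSC (-1.33, SE 0.14) and EpiLC (-0.66, SE 0.13), and did not pass in ASC (-0.12) or ESC-ASC (-0.11). Nrf1 fell in EpiSC (-0.56, SE 0.13) and AFSC (-0.55, SE 0.13). Ppargc1b, a coactivator of respiratory genes, rose in ASC (1.14, SE 0.23) and ESC-ASC (1.58, SE 0.22) and fell in AFSC (-0.87, SE 0.27). Other regulators, chosen after their values were seen, had lower means in ASC and ESC-ASC than in ESC. These were Pprc1 (266.1 and 201.0 against 366.9), Polrmt (74.6 and 76.4 against 110.2) and Tfb2m (67.2 and 38.1 against 95.2). Myc rose by 4.71 in AFSC (SE 0.25) and 2.61 in ASC (SE 0.26) and fell by 0.82 in ESC-ASC (SE 0.31). Whether any of these moves with the members was not tested.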

How the data were processed

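Poly(A) RNA of 18 samples in 6 groups was sequenced by the authors on an Illumina instrument after directional library preparation, and the reads were aligned with TopHat2 to the mouse genome GRCm38/mm10. Per the file headers, the deposited values are raw fragment counts per gene made with featureCounts 1.5.0-p1 on Ensembl release 86, without strand, with a minimum overlap of 10 bases and with fragments that overlapped several genes or mapped to several places counted at each. Depth was 4961934 to 18071600 counts per sample, which limits genes with few counts, and intervals and floors cover counting error only.

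Groups were taken from the sample labels. Genes that reached 10 counts in 3 or more samples (16901 of 35773) were tested with edgeR 4.0.16 (R 4.3.3), in 1 fit of all 18 samples without covariates, with TMM scaling, the quasi-likelihood F test and Benjamini-Hochberg adjustment over all genes tested, in 8 comparisons and over the 6 groups at once. Genes with an adjusted p under 0.05 were called. Standard errors (SE) were obtained by dividing the absolute log2 fold change by the root of the F statistic. The scripts were tested on simulated data. Levels are counts over DESeq2 size factors, per kb of exon. Ratios for genes with few counts have exact 95% intervals, and a group at 0 was set to 3 counts over the group. Alternatives were DESeq2 1.42.0, other scalings, a length offset, stricter and no filters, only the samples compared, a replicate block and leaving out samples. Fits without replicate 1 and without mitochondrial counts were added after the data were seen.

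Promoter windows are from RefSeq (GRCm38.p6), matched by symbol. Named genes were, per comparison, up to 6 called members with the largest and 6 with the smallest log2 fold change among those whose groups did not overlap, together with the 4 complex II genes, core complex I subunits and the paralogue families, and for levels the 5 highest and 5 lowest members. Members, lists (mitochondrially encoded subunits, cytochromes and others, assembly factors, regulators, TCA cycle, cell type markers) and comparisons were chosen with earlier results of these data known. Results for 1 member are not reported here.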

Additional observations from a re-analysis of the deposited data

How the results depend on the processing

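Of 411 values of member counts and medians under the alternatives, 386 stayed within 1.5 times (counts) or 1 SD (medians) of the reported value and 25 moved, and the cause was not tested. Without the libraries of replicate 1 the members higher were 33 in EpiSC, 39 in AFSC and 8 in ASC against ESC and 20 in ASC against EpiSC, the members lower were 13 in EpiLC and 24 in ASC against ESC and 15 in ESC-ASC against ASC, and the median of ESC-ASC against ESC was 0.0372. Scaling by library totals only gave 36 higher and 7 lower in AFSC against ESC and 4 lower in ESC-ASC against ASC, and shifted the median of all genes by 0.125 in AFSC against ESC, 0.202 in ASC against ESC, 0.143 in ASC against EpiSC and -0.143 in ESC-ASC against ASC. A fit of only the 6 samples gave 7 lower in AFSC against ESC. The strict filter gave 3 higher in ASC against ESC, 3 higher in ASC against AFSC and 1 lower in ESC-ASC against ASC, where fewer genes were tested. The length offset gave 4 lower in ESC-ASC against ASC.

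With 1 library left out at a time, the members lower in EpiSC against ESC ranged from 13 (without EpiSC replicate 1) to 18. The members higher in EpiLC against ESC ranged from 10 (without EpiLC replicate 1) to 28, and those in ASC against ESC were 3 to 5 higher and 25 (without ESC replicate 1) to 45 lower. In ESC-ASC against ESC 13 (without ESC replicate 1) to 23 were lower. In ESC-ASC against ASC 21 (without ASC replicate 1) to 39 were higher and 2 to 6 were lower.

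Of 3876 log2 fold changes of named genes under the alternatives, 3513 kept their direction and side of the threshold, 132 lost the call, 89 gained it and 141 uncalled ones moved. The 1 that turned was Cox7b in ASC against ESC, from -0.13 to 0.34 (edgeR adjusted p = 0.0219) without replicate 1. The median of complex III turned sign between scalings in EpiSC and AFSC against ESC, as did that of complex II in AFSC and ASC, complexes IV and V in EpiLC, and the assembly factors in ESC-ASC against ESC.

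Replicate numbers were not taken as pairs. Deviations of same-numbered samples from their group means correlated over 0.1 in 21 of 45 pairs (mean r 0.0924, across genes, which are not independent replicates), and 7 of 18 samples correlated best with one of their own number. With a replicate block the counts were 5 higher and 40 lower in ASC against ESC and 39 and 3 in ESC-ASC against ASC, and no count moved by more than 1.5 times.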
